A study of Mus musculus with 8 samples.

Results

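The genes described here encode subunits of the mitochondrial respiratory chain and of ATP synthase, together with a few genes that carry the same kind of name. They were chosen by name alone: every gene on the array named Nduf with a letter a, b, c, s or v and a number, Sdha to Sdhd, or with a name starting in Uqcr, Cox4 to Cox8 or Atp5. This gave 85 of the 36826 gene names on the array, with 37 in complex I, 4 in complex II, 8 in complex III, 18 in complex IV and 18 in complex V. Of these, 83 passed the filter on dim probes, as did 21264 genes in all. Cox8b and Cox8c, muscle and testis forms of a small complex IV subunit, did not pass it. The names bring in some genes that are not subunits: Atp5c1-ps is a pseudogene, Atp5s and Atp5sl now carry the symbols Dmac2l and Dmac2, and Cox7a2l is an assembly factor of respiratory supercomplexes. Ndufa4 is counted here with complex I by its name, although its protein is now placed in complex IV.

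RNA from the left kidney of 8 mice was measured on 1-colour arrays, 24 h after surgery, in 4 groups of 2 mice. Mimic mice (6 and 7) received 5 nmol of a miR-5100 mimic in 200 µl through the tail vein, carried by polyethylenimine nanoparticles (particles of a positively charged polymer used for delivery of nucleic acids), 2 days before ischaemia-reperfusion injury. Control-miRNA mice (1 and 5) received the same dose of a control miRNA on the same particles and then the same injury. IRI mice (30 and 34) had the injury without an injection: the right kidney was removed and the left kidney was clamped for 45 min and reperfused. Sham mice (1 and 4) had a midline incision, with no nephrectomy, clamping or injection named, so the injured groups differ from sham in the nephrectomy as well as in the clamping. None of the 4 groups had the injection without the injury, and the labels do not name the strain, sex or age of the mice. The mouse numbers were taken to mark separate animals. The mimic copies the mature miR-5100 below, shown because it is the agent that sets mimic apart from control-miRNA mice. The sequence is from RefSeq (GRCm38.p6, chr11:60728698-60728718, plus strand), and the capitals mark the seed, bases 2 to 8.
mmu-miR-5100: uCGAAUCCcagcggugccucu

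Oxidative phosphorylation passes electrons from NADH through complex I, and from succinate through complex II, to ubiquinone, on to cytochrome c through complex III and to oxygen through complex IV. Complexes I, III and IV pump protons across the inner mitochondrial membrane, and complex V, the ATP synthase, uses the proton gradient to make ATP. Complex II is encoded wholly in the nucleus, while complexes I, III, IV and V also hold a few subunits encoded in mitochondrial DNA. The kidney's proximal tubule is rich in mitochondria and depends on this pathway for reabsorption, and ischaemia and reperfusion damage it early.

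Levels are log2 of the processed array signal minus the 75th percentile of the same array, so 1 unit is a factor of 2 and 0 is that percentile. Each gene is represented by its brightest probe, and since probes differ in how well they bind, a level is compared between arrays and not between genes. A gene was called higher or lower where limma's test gave a Benjamini-Hochberg adjusted p under 0.05 over the 21264 genes. With 2 mice a group, the number of arrays limits the precision. The standard errors and p-values below come from 1 spread estimate shared by the 4 groups. Array brightness (the 75th percentile of the signal) was 308 and 242 in mimic, 500 and 416 in control-miRNA, 468 and 600 in IRI and 408 and 476 in sham mice, so the mimic arrays were the dimmest. Sham and IRI arrays lay in one row of the slide and mimic and control-miRNA arrays in the other, so slide row and injection cannot be told apart. The kidney origin and the injury were visible in marker genes. All 14 proximal tubule markers and all 7 thick ascending limb markers passed the filter, and all 5 markers of injured tubule were called higher in injured kidneys, with a median log2 difference of 7.55.

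In the injured kidneys as a whole (the mean of mimic, control-miRNA and IRI minus sham), the genes of the respiratory chain and ATP synthase were lower in all 5 complexes. Of the 83 genes 41 fell and 1 rose, against 12.2% of all genes called lower and 13.6% called higher. The median difference over the 83 genes was -0.54 and over all genes -0.01, and 79 of the 83 differences were negative. By complex, 17 of 37 genes fell in complex I (median -0.50), 3 of 4 in complex II (median -0.75), 4 of 8 in complex III (median -0.47), 8 of 16 in complex IV (median -0.53) and 9 of 18 in complex V (median -0.56). All 6 injured arrays lay below or all above both sham arrays for 62 genes in the lower and 2 in the higher direction, against 17.7% and 17.9% of all genes. The number of calls rested on the sham mice: without sham mouse 4 there were 0 calls, and without sham mouse 1 there was 1, Ndufs1 (-0.99, limma adjusted p = 0.0465). Without IRI mouse 30 there were 21 calls, without IRI mouse 34 there were 24, without control-miRNA mouse 1 there were 28 and without mimic mouse 7 there were 65. The share of all genes called moved with these counts, between 6.15% without sham mouse 4 and 34.2% without mimic mouse 7, against 25.8% with all 8 arrays. The median kept its sign throughout, from -0.58 to -0.49 over the 8 fits that leave out 1 array.

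**Figure D1:**
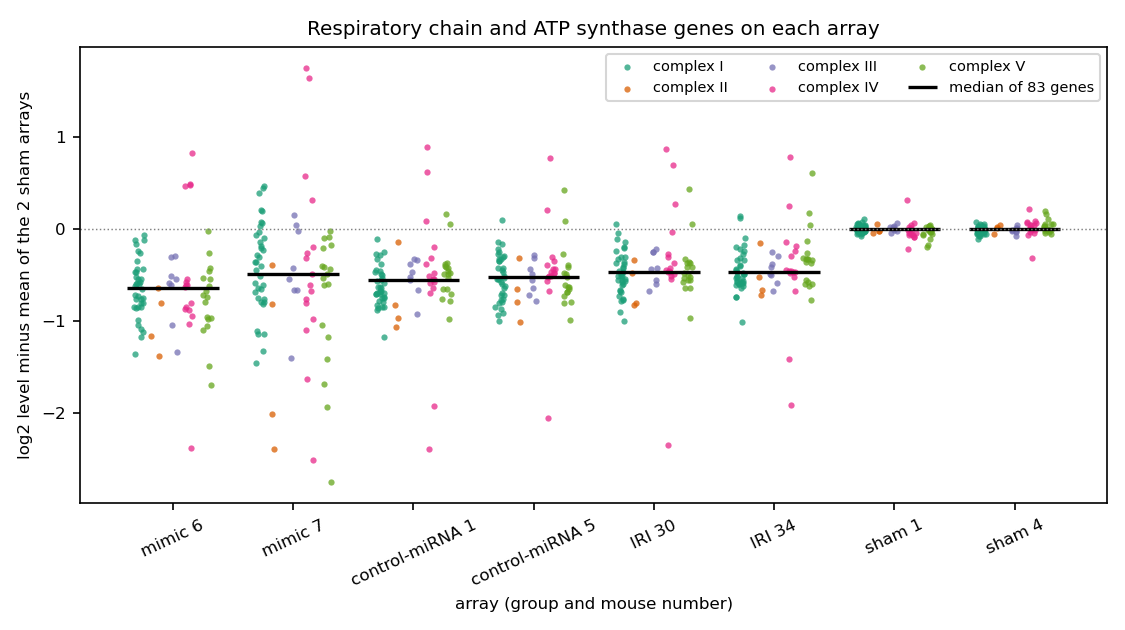
Level of each of the 83 genes on each array, as log2 level minus the mean of the 2 sham arrays (vertical axis), with arrays by group and mouse number along the horizontal axis, points coloured by complex and lines at the median. The median lies between -0.64 and -0.46 on the 6 injured arrays, and the points of mimic 7 spread most widely.

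On single arrays, the median of the 83 genes relative to the sham mean was -0.64 for mimic 6 and -0.49 for mimic 7, -0.56 for control-miRNA 1 and -0.52 for control-miRNA 5, -0.47 for IRI 30 and -0.46 for IRI 34. Every injured array was thus lower than sham by a similar amount in its median, but not in its spread. Between the 2 mice of a group, the differences over the 83 genes had an SD of 0.55 in mimic, 0.29 in control-miRNA, 0.28 in IRI and 0.13 in sham mice. Mimic 7 had 14 of the 83 genes above the sham mean, and the other injured arrays had 4 to 7. In RNA from whole tissue, fewer cells of a type and less RNA per cell cannot be told apart. Markers of the proximal tubule were lower too: 11 of the 14 fell in injured against sham kidneys, against 12.2% of all genes, with a median difference of -1.67. Lrp2, the uptake receptor megalin, fell by 2.01 (limma adjusted p = 0.000605) and Slc34a1, the phosphate transporter, by 2.52 (limma adjusted p = 0.00106). Their summed level (linear, relative to the 75th percentile) ranged from 1295 to 1673 in mimic, from 1055 to 1292 in control-miRNA, from 1043 to 1082 in IRI and from 2488 to 2600 in sham mice, and all 14 passed the filter on dim probes. Other segments were lower as well, with medians of -0.95 for thick ascending limb, -1.04 for distal convoluted tubule and -0.81 for collecting duct markers. In mimic against IRI, the proximal tubule markers had a median of 0.31, with 4 of 14 differences negative. The 83 genes had a median of -0.16 there. The part of the loss of tubule markers in the fall of the respiratory chain genes was not tested.

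**Figure D2:**
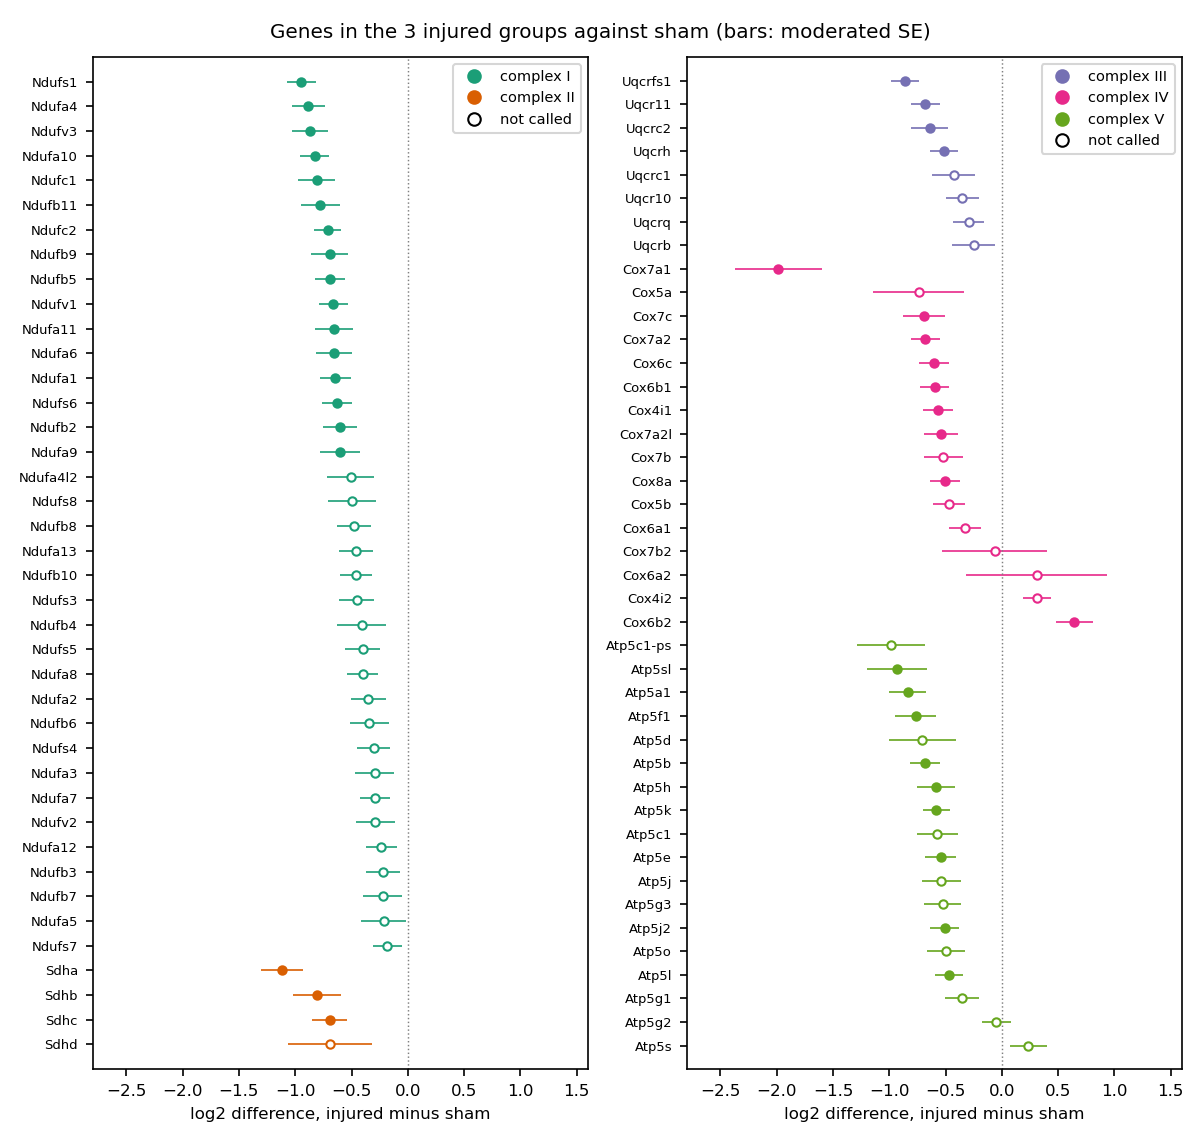
Log2 difference between injured and sham kidneys for 82 of the 83 genes, by complex and size, where bars are moderated standard errors, filled points are genes called at an adjusted p under 0.05 and open points are not called. All plotted genes of complexes I to III lie below 0, and Cox6b2 is the one filled point above it.

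Complex I takes electrons from NADH. Ndufs1, its largest core subunit, which holds iron-sulphur clusters, stood at 4.11 and 4.34 in mimic, 4.63 and 4.68 in control-miRNA, 4.70 and 4.74 in IRI and 5.44 and 5.52 in sham mice. All injured arrays were below both sham arrays, with the mimic arrays lowest. It fell by 0.94 ± 0.13 (log2, moderated SE) in injured against sham kidneys (limma adjusted p = 0.00359). Its probe lies at chr1:63190360-63190419 (mm9, minus strand, as the array files place it). A second probe (chr1:63196822-63196881), with a mean level of -3.43, gave the opposite sign in mimic against sham, at 1.10 with an unadjusted limma p of 0.0239. With the mean of the 2 probes, the difference of Ndufs1 in injured kidneys was -0.35 and was not called (limma adjusted p = 0.251).

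Ndufv1 binds NADH and the flavin cofactor. Its levels were 5.88 and 5.86 in mimic, 5.95 and 6.14 in control-miRNA, 6.12 and 6.17 in IRI and 6.73 and 6.63 in sham mice, a fall of 0.66 ± 0.13 in injured kidneys (limma adjusted p = 0.0115). The groups did not overlap with sham. Ndufv3, an accessory subunit beside it, read 6.50 and 6.82 in mimic, 6.09 and 6.35 in control-miRNA, 6.36 and 6.25 in IRI and 7.37 and 7.15 in sham mice. Here the mimic arrays were the highest of the injured ones. The fall in injured kidneys was 0.87 ± 0.16 (limma adjusted p = 0.00984).

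Among the other core subunits of complex I, Ndufs3, Ndufs7, Ndufs8 and Ndufv2, which belong to the peripheral arm with its iron-sulphur clusters, had differences of -0.45, -0.18, -0.50 and -0.29 and were not called (limma adjusted p of 0.0706, 0.349, 0.135 and 0.268). For Ndufs8 the 2 mimic mice lay far apart, at 5.68 and 6.47, against 5.52 and 5.57 in control-miRNA, 5.72 and 5.69 in IRI and 6.33 and 6.21 in sham mice. Mimic 7 was above both sham mice, and the other injured arrays were below them.

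Of the accessory subunits of complex I, Ndufa10 stood at 3.98 and 4.04 in mimic, 4.47 and 4.31 in control-miRNA, 4.50 and 4.67 in IRI and 5.19 and 5.12 in sham mice. Ndufb5, a membrane-arm subunit, stood at 5.38 and 5.63 in mimic, 5.43 and 5.42 in control-miRNA, 5.63 and 5.75 in IRI and 6.23 and 6.24 in sham mice, and fell by 0.69 (limma adjusted p = 0.0115). Ndufc2, a small membrane subunit, stood at 5.41 and 5.43 in mimic, 5.52 and 5.51 in control-miRNA, 5.55 and 5.64 in IRI and 6.24 and 6.20 in sham mice. All 3 were below sham on every injured array. Ndufa10 fell by 0.83 (limma adjusted p = 0.00574) and Ndufc2 by 0.71 (limma adjusted p = 0.00725). Ndufa4 was at 5.45 and 5.04 in mimic, 5.71 and 5.78 in control-miRNA, 5.81 and 5.89 in IRI and 6.50 and 6.50 in sham mice, and fell by 0.88 ± 0.15 (limma adjusted p = 0.0075). Its homologue Ndufa4l2, a known hypoxia-induced gene, was at -0.64 and 0.06 in mimic, -1.07 and -1.27 in control-miRNA, -1.40 and -1.14 in IRI and -0.44 and -0.37 in sham mice. Control-miRNA and IRI mice were below sham and mimic mice lay on both sides of it, and the injured kidneys' difference of -0.51 was not called (limma adjusted p = 0.12). Without either mimic array, a setting added after seeing the data, it was -0.82 and was called (limma adjusted p = 0.00876).

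Complex II, succinate dehydrogenase, links the citric acid cycle to the chain. The flavin subunit Sdha, which oxidizes succinate, was at 4.43 and 3.798 in mimic, 4.85 and 5.02 in control-miRNA, 4.99 and 5.10 in IRI and 5.80 and 5.83 in sham mice. It fell by 1.12 ± 0.19 in injured kidneys (limma adjusted p = 0.00742), with the mimic mice lowest and no overlap with sham. Its probe lies at chr13:74460310-74460369 (mm9, minus strand). Sdhb, the iron-sulphur subunit, fell by 0.81 (limma adjusted p = 0.0324), and the membrane anchor Sdhc fell by 0.69 (limma adjusted p = 0.0189). Sdhd, the second anchor, had the same mean difference of -0.69 but was not called (limma adjusted p = 0.226), as its levels of 4.63 and 3.05 in the mimic mice were far apart, against 5.30 and 5.13 in control-miRNA, 5.10 and 5.29 in IRI and 5.40 and 5.48 in sham mice.

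In complex III, which reduces cytochrome c, the Rieske iron-sulphur protein Uqcrfs1 was at 4.62 and 4.55 in mimic, 5.43 and 5.23 in control-miRNA, 5.35 and 5.37 in IRI and 5.91 and 6.00 in sham mice. It fell by 0.86 ± 0.13 (limma adjusted p = 0.00465), and the mimic arrays were below all the others. Uqcr11, a small subunit, was at 6.80 and 6.98 in mimic, 6.48 and 6.62 in control-miRNA, 6.73 and 6.73 in IRI and 7.44 and 7.37 in sham mice, a fall of 0.68 ± 0.13 (limma adjusted p = 0.0112). For this gene the control-miRNA arrays were lowest. The core protein Uqcrc2 fell by 0.64 (limma adjusted p = 0.029). The other core protein, Uqcrc1, was at 5.71 and 6.35 in mimic, 5.83 and 5.65 in control-miRNA, 5.87 and 5.80 in IRI and 6.31 and 6.28 in sham mice. Mimic 7 was above both sham arrays, and the difference of -0.43 ± 0.19 was not called (limma adjusted p = 0.145). Without either mimic array it was -0.51 and was called (limma adjusted p = 0.0227).

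**Figure D3:**
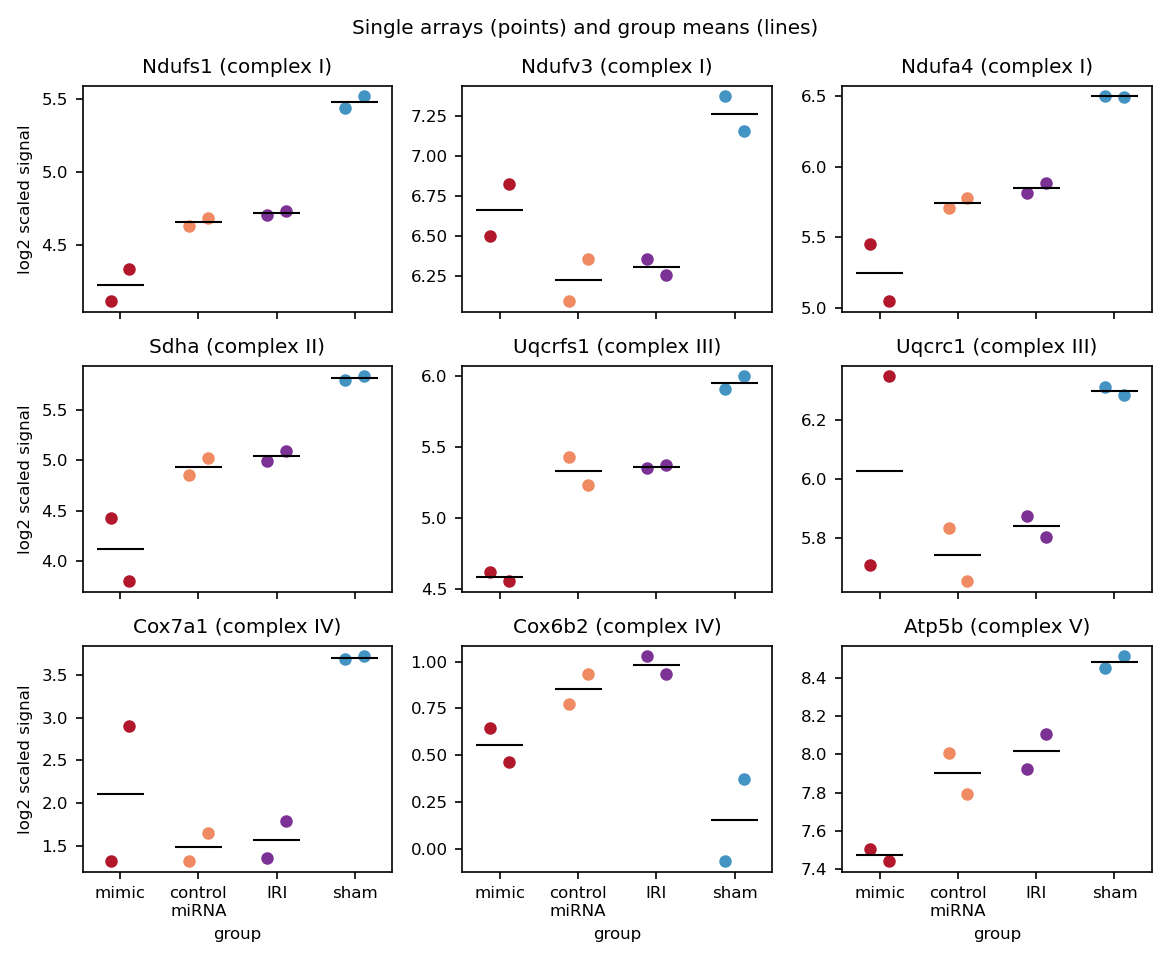
Log2 scaled signal (vertical axis, a separate scale for each gene) of 9 genes in the 4 groups (horizontal axis), where points are single arrays and lines are group means. Injured arrays lie below sham for all but Uqcrc1, where mimic 7 is above it, and Cox6b2, where they lie above it.

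Complex IV, cytochrome c oxidase, has subunits with forms that differ between tissues, which are given side by side here. The core of the complex is encoded in mitochondrial DNA, and the nuclear subunits on the array surround it. Cox4i1, the common form of the largest nuclear subunit, stood at 7.30 and 7.199 in mimic, 7.18 and 7.44 in control-miRNA, 7.36 and 7.35 in IRI and 7.90 and 7.84 in sham mice, and fell by 0.57 (limma adjusted p = 0.0224). Cox4i2, its hypoxia-related form, had a difference of 0.31 that was not called (limma adjusted p = 0.112).

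Cox7a1, the form of subunit VIIa known from heart and skeletal muscle, had the largest fall of the 83 genes. It stood at 1.32 and 2.90 in mimic, 1.32 and 1.64 in control-miRNA, 1.35 and 1.78 in IRI and 3.69 and 3.72 in sham mice. All injured arrays were below sham, but mimic 7 was well above the other injured ones. The difference was -1.98 ± 0.39 (limma adjusted p = 0.0122) and the probe lies at chr7:30970337-30970948 (mm9, plus strand). Of the 7 skeletal and heart muscle markers 4 were measured, and they did not move one way. Myh6 fell by 1.77 (limma adjusted p = 0.0045), while Acta1 (0.96, limma adjusted p = 0.12), Tnnt3 (0.54, limma adjusted p = 0.118) and Myl1 (0.19, limma adjusted p = 0.512) had positive differences and were not called. The median over the 4 was 0.37 and the mean -0.02, of opposite sign. Ckm, Myh1 and Tnnt2 were not well above background in any group. The summed level of the 4 was 0.71 and 0.61 in mimic, 0.45 and 0.40 in control-miRNA, 0.45 and 0.37 in IRI and 0.49 and 0.47 in sham mice, and its part in the Cox7a1 result was not tested. Cox7a2, the form found in most tissues, was at 6.15 and 6.00 in mimic, 6.52 and 6.59 in control-miRNA, 6.61 and 6.63 in IRI and 7.03 and 7.16 in sham mice, and fell by 0.68 (limma adjusted p = 0.0105).

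Cox6b1, the common form of subunit VIb, fell by 0.60 (limma adjusted p = 0.0161). Cox6b2, its testis form, was the one gene that rose: it was at 0.65 and 0.47 in mimic, 0.77 and 0.93 in control-miRNA, 1.03 and 0.93 in IRI and -0.07 and 0.37 in sham mice. The injured arrays were all above sham, by 0.64 ± 0.16 in the mean (limma adjusted p = 0.0287), while the sham mice themselves were 0.44 apart. Cox6a1 (-0.33, limma adjusted p = 0.137) and its muscle form Cox6a2 (0.31, limma adjusted p = 0.76) were not called. Cox7b (-0.52, limma adjusted p = 0.0677) and its testis form Cox7b2 (-0.06, limma adjusted p = 0.936) were not called either, and Cox7b2 was well above background on only 1 of the 2 control-miRNA arrays. Cox8a fell by 0.50 (limma adjusted p = 0.032). Cox5a and Cox5b, subunits that bind the catalytic core, were not called (-0.74 with an adjusted p of 0.229, and -0.47 with an adjusted p of 0.0507, in limma's test). Cox5a was at 6.52 and 4.81 in mimic, 7.13 and 6.89 in control-miRNA, 7.02 and 7.14 in IRI and 7.26 and 7.39 in sham mice, so mimic 7 alone lay far below the rest.

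In complex V, Atp5b, the catalytic beta subunit, was at 7.51 and 7.44 in mimic, 8.01 and 7.79 in control-miRNA, 7.92 and 8.11 in IRI and 8.45 and 8.51 in sham mice. It fell by 0.68 ± 0.13 (limma adjusted p = 0.0124) without overlap. Atp5a1, the alpha subunit, was at 7.12 and 6.67 in mimic, 7.43 and 7.27 in control-miRNA, 7.43 and 7.52 in IRI and 8.02 and 8.14 in sham mice, a fall of 0.84 ± 0.16 (limma adjusted p = 0.0116). Atp5c1, the central stalk, and Atp5o, which joins the stator to the catalytic head, had differences of -0.57 and -0.50 that were not called (limma adjusted p of 0.0591 and 0.0692). Atp5k, a membrane subunit, was at 6.82 and 6.79 in mimic, 6.50 and 6.64 in control-miRNA, 6.75 and 6.68 in IRI and 7.30 and 7.26 in sham mice, and fell by 0.58 (limma adjusted p = 0.0159). The 3 genes for the membrane ring's c subunit, Atp5g1, Atp5g2 and Atp5g3, had differences of -0.35, -0.05 and -0.53, of which 0 were called.

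The comparisons of single groups with sham share the 2 sham arrays, so their values stand side by side and are not independent. In mimic against sham, 41 of the 83 genes fell and 1 rose, against 12.8% and 15.2% of all genes, with a median of -0.60 (all genes 0.11). In control-miRNA against sham, 21 fell and 0 rose, against 7.79% and 9.55% of all genes, with a median of -0.54 (all genes -0.05). At an unadjusted limma p under 0.05, 1 gene was higher there, Cox6b2 (0.70, limma adjusted p = 0.055), against 17.3% of all genes. In IRI against sham, 8 fell and 1 rose, against 8.85% and 9.45% of all genes, with a median of -0.45 (all genes -0.08). The count of falls in IRI kidneys alone was thus near the background, though 77 of the 83 differences were negative, against 55.5% of all genes. The 3 counts moved with the arrays in the fit, since it shares its spread among groups. For IRI against sham there were 39 calls without mimic mouse 6, without mimic mouse 7 or without both (the last added after seeing the data), 5 without control-miRNA mouse 1 or 5, and 0 without either sham or either IRI mouse. For control-miRNA against sham there were 52 calls without either or both of the mimic mice, 6 without IRI mouse 30 or 34, 3 without control-miRNA mouse 5 and 0 without control-miRNA mouse 1 or without sham mouse 1 or 4. For mimic against sham there were 22 without either IRI mouse, 9 without sham mouse 1 and 4 without sham mouse 4, which were Ndufa10, Ndufs1, Sdha and Uqcrfs1. Over the fits that leave out 1 array, the share of all genes called ranged from 3.77% to 28% for IRI, from 3.26% to 26.9% for control-miRNA and from 5.17% to 34.5% for mimic against sham, so it moved with the members' counts. With array brightness as a covariate, 0 of the 83 genes were called in mimic against sham, as were 0.541% of all genes, and 0 in IRI against sham, with 8.73% of all genes. The mimic arrays were the dimmest (308 and 242, against 408 and 476 in sham mice), so the covariate and the mimic group are hard to tell apart. With the covariate the median of the 83 genes in mimic against sham was still negative. The part of brightness in the mimic calls was not tested further.

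The 8 falls in IRI kidneys were Ndufs1 (-0.76), Ndufv3 (-0.96), Ndufa10 (-0.57) and Ndufc2 (-0.63) in complex I, Uqcrfs1 (-0.59) and Uqcr11 (-0.67) in complex III, Cox7a1 (-2.13) and Atp5k (-0.57), with limma adjusted p-values between 0.0194 (Ndufv3) and 0.0489 (Ndufa10). Cox6b2 rose there by 0.83 (limma adjusted p = 0.0328). The same 8 genes were among the falls in control-miRNA kidneys, where Cox7a1 differed by -2.22, Ndufv3 by -1.04 and Uqcr11 by -0.86. Sdhc (-0.86), Ndufb5 (-0.80), Atp5e (-0.78) and Ndufs6 (-0.73) were called in control-miRNA kidneys too, with limma adjusted p-values of 0.0268, 0.0204, 0.0261 and 0.0258. In mimic kidneys the smallest p-values belonged to Uqcrfs1 (-1.37, limma adjusted p = 0.0028), Ndufs1 (-1.25), Sdha (-1.70), Ndufa10 (-1.14), Ndufa4 (-1.25), Cox7a2 (-1.02), Atp5f1 (-1.40), Atp5b (-1.01), the pseudogene Atp5c1-ps (-2.23) and Atp5a1 (-1.18). Cox7a1 fell there by 1.59 (limma adjusted p = 0.0465), and Ndufv3 (-0.60, limma adjusted p = 0.0577), Uqcr11 (-0.51, limma adjusted p = 0.0512) and Atp5k (-0.47, limma adjusted p = 0.0569) were not called. Cox4i2 rose in mimic against sham by 0.52 (limma adjusted p = 0.0446), with -0.78 and -0.67 in mimic and -1.29 and -1.20 in sham mice. Atp5s had positive differences of 0.52 in IRI (limma adjusted p = 0.122), 0.29 in control-miRNA (limma adjusted p = 0.355) and 0.23 in all injured kidneys (limma adjusted p = 0.352), and was not called. In mimic against sham its difference was -0.11 (limma adjusted p = 0.691), with -2.22 and -2.40 in mimic and -2.39 and -2.003 in sham mice, which overlap.

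In mimic against control-miRNA kidneys, which asks what the mimic adds to the particles and the injury, 0 of the 83 genes were called, as were 0% of all genes by limma. At an unadjusted limma p under 0.05, 18 of the genes were lower and 6 higher, against 14.3% and 19.5% of all genes. The median was -0.03 (all genes 0.07), with 43 negative and 40 positive differences. The smallest p-values in the lower direction were those of Uqcrfs1 (-0.75), Atp5c1-ps (-1.68) and Atp5f1 (-0.94), each with a limma adjusted p of 0.0662, and in the higher direction those of Cox7b2 (2.43, limma adjusted p = 0.0662), Ndufa4l2 (0.88, limma adjusted p = 0.0767) and Ndufb7 (0.65, limma adjusted p = 0.0938). There were 26 calls without mimic mouse 6, 15 lower and 11 higher, with mimic 7 as the only mimic array, and 29.7% of all genes were called there. Normexp background correction gave 21 calls (27.4% of all genes) and a prior variance with a trend gave 8 (9.33% of all genes), so the share of the members (31.3%, 25.3% and 9.64%) was near that of all genes in each. The other settings run on all 8 arrays gave 0. In control-miRNA against IRI kidneys 0 of the 83 genes were called, as were 0% of all genes, and at an unadjusted limma p under 0.05 there were 0 in either direction, against 1.12% of all genes lower and 2.97% higher. The differences were small and mostly negative, 79 of 83, with a median of -0.10 (all genes 0.01). Sdhc (-0.36), Ndufb2 (-0.34) and Ndufb5 (-0.26) had the smallest p-values in the lower direction, and Cox6a2 (0.57), Ndufa4l2 (0.10) and Sdhd (0.02) in the higher, all with a limma adjusted p of 1.

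In mimic against IRI kidneys 9 genes fell and 1 rose, against 5.53% and 10.5% of all genes. The median was -0.16 (all genes 0.10). Atp5f1 (now Atp5pb), a stator subunit of ATP synthase, was at 5.28 and 4.69 in mimic and 5.83 and 6.03 in IRI mice, a fall of 0.94 (limma adjusted p = 0.0423). Cox7c, a small complex IV subunit, was at 4.41 and 3.82 in mimic and 5.08 and 5.31 in IRI mice, a fall of 1.08 (limma adjusted p = 0.0387). That value is from the upstream of its 2 probes on this transcript, and the downstream one gave -0.23, with an unadjusted limma p of 0.312. Ndufb6, an accessory subunit of complex I, was at 4.42 and 3.92 in mimic and 5.02 and 5.21 in IRI mice, a fall of 0.94 (limma adjusted p = 0.0393). For all 3 the groups were apart and mimic 7 was the lower mimic array. The other falls were those of Atp5c1-ps (-2.04), Uqcrfs1 (-0.78), Sdha (-0.93), Ndufa11 (-0.77), Ndufb3 (-0.75) and Cox6b1 (-0.59). Ndufa4l2 rose by 0.98 (limma adjusted p = 0.0471). Cox7b2 (1.65, limma adjusted p = 0.0814) and Ndufb7 (0.60, limma adjusted p = 0.0857) had the next smallest p-values in that direction and were not called. The 10 calls became 24 without mimic mouse 6, 18 lower and 6 higher, with 35.4% of all genes called. They became 0 without any one of the other 7 mice, with array brightness as a covariate, with array weights and with only the groups compared, and in each of these fits 0% of all genes were called. Of 6 endothelial markers 4 rose in mimic against IRI, with a summed level of 14.03 and 16.97 in mimic and 8.99 and 8.14 in IRI mice. This was not particular to endothelium: of 6 macrophage markers 3 rose and 1 fell. Podocyte (0.78) and T and B cell markers (0.76) had positive medians, and collecting duct (-0.28) and injured tubule markers (-0.69) negative ones. The parts of brightness and of these markers in the 10 calls were not tested further.

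**Figure D4:**
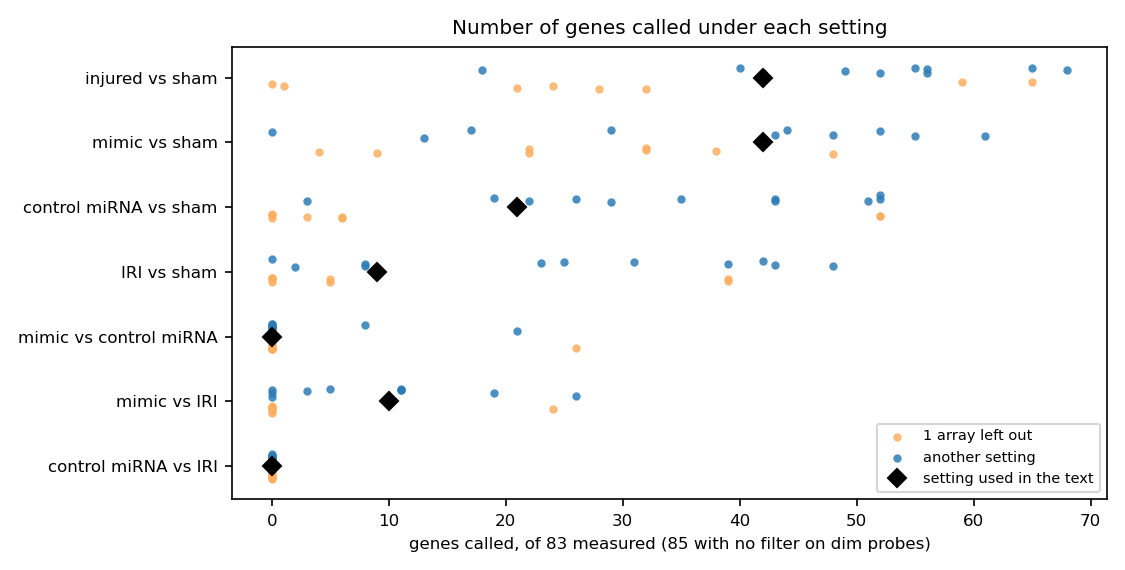
Number of the 83 genes called in each comparison (horizontal axis; comparisons run down the page), with a diamond for the setting of the text, blue points for other settings and orange points for fits without 1 array. Injured against sham has 42 calls in the text and between 0 and 68 elsewhere.

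Probes of 1 transcript did not read alike on the mimic arrays. For 11 of the 83 genes, 2 probes at least 200 bases apart lie on the same transcript, and the difference between the upstream and the downstream probe, relative to sham, had a median of -0.24 on mimic 6 and -1.10 on mimic 7. It was 0.06 and -0.07 in the control-miRNA mice, 0.04 and 0.30 in the IRI mice and -0.08 and 0.08 in the sham mice. The upstream probe was relatively lower for 9 of the 11 on mimic 7, with Atp5b and Sdha as the exceptions. This count does not set mimic 7 apart, as it was 10 on mimic 6 and 10 on control-miRNA 5. It was 2 on control-miRNA 1, 4 on IRI 30 and 1 on IRI 34. On sham 1 and sham 4 it was 9 and 2. The sham values mirror each other by construction, since each pair is centred on the mean of these 2 arrays. Over all 4258 such pairs on the array the median was 0.20 on mimic 6 and 0.04 on mimic 7. Over the 477 pairs whose downstream probe stood at 4 or more, it was -0.19 on mimic 6 and -0.59 on mimic 7. On mimic 7 the upstream probe was relatively lower in 48.4% of all pairs and in 70.9% of the 477. This measure and this level were chosen after seeing the data, and the part of this difference in the mimic results was not tested. A lower upstream signal is one sign of RNA quality, which was not measured otherwise here. For Cox7c, the difference between the probes was -0.25 on mimic 6 and -1.17 on mimic 7. For Sdhb, the upstream probe gave -1.91 in mimic against sham and the downstream probe -0.78. For Ndufb5 they gave -1.94 and -0.73.

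Among probes that passed the filter, opposite signs, each at an unadjusted limma p under 0.05, were found for 5 genes in the comparisons of mimic mice. In mimic against sham they were Ndufs1 (-1.25 and 1.10), Ndufa10 (-1.14 and -1.47 against 0.91) and Atp5j2 (-0.70 and 1.03). In mimic against IRI they were Ndufs1 (-0.49 and 1.30), Ndufa10 (-0.57 and -1.04 against 1.53) and Atp5g1 (-0.99 and 0.77, neither of which stands for the gene). In mimic against control-miRNA they were Ndufa10 (-0.73 and 1.15) and Sdha (-0.82 and -0.60 against 0.64). The probes with a positive sign had mean levels below 0, apart from that of Atp5g1 at 2.16. Uqcrfs1 (-1.37 and 0.64) and Ndufs5 (-0.91 and 1.40) had such signs in mimic against sham too. Their positive probes did not pass the filter, with mean levels of -6.51 and -6.46.

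The subunits encoded in mitochondrial DNA, complete complexes I, III, IV and V. Of the 13, 11 were measured, and 0 were called in injured against sham kidneys, where their median difference was 0.03. At an unadjusted limma p under 0.05 there were 0 as well. Relative to sham, their median was 0.27 and 0.85 in the mimic mice, -0.25 and -0.02 in the control-miRNA mice and -0.17 and -0.53 in the IRI mice. It was 0.11 and -0.11 in the sham mice themselves, which mirror each other because levels are centred on their mean. In mimic against IRI, 7 of the 11 rose, against 10.5% of all genes, with a median of 0.95, where the nuclear genes had a median of -0.16. None of the 7 was called without any one mouse other than mimic 6, with the brightness covariate, with array weights or with only the groups compared, where 0% of all genes were called. COX2, a catalytic subunit of complex IV, was at 9.65 and 9.97 in mimic and 9.02 and 8.65 in IRI mice. This was a rise of 0.98 in the scaled level (limma adjusted p = 0.0393). The brightness used for scaling was 308 and 242 for these mimic and 468 and 600 for these IRI arrays, the reverse order. The median of the 11 was likewise highest on the dimmest array (mimic 7, 0.85) and lowest on the brightest (IRI 34, -0.53). Since a level is the log2 signal minus the log2 brightness of its array, an unchanged signal reads higher on a dimmer array. These rises are thus in the scaled level only, and a rise in the signal before scaling was not tested. ND6 rose by 1.16 (limma adjusted p = 0.0387) and CYTB, the cytochrome b of complex III, by 0.95 (limma adjusted p = 0.0439). In IRI against sham all 11 differences were negative, with a median of -0.37 and 0 calls, and 0 at an unadjusted limma p under 0.05. The control-miRNA arrays, with a brightness of 500 and 416, were also brighter than the mimic arrays. In mimic against control-miRNA, where the part of brightness was not tested, all 11 were positive, with a median of 0.71 and 0 calls. At an unadjusted limma p under 0.05, 8 of the 11 were higher there, against 19.5% of all genes. These transcripts are cut from long shared precursors, so the 11 values are not independent of each other.

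**Figure D5:**
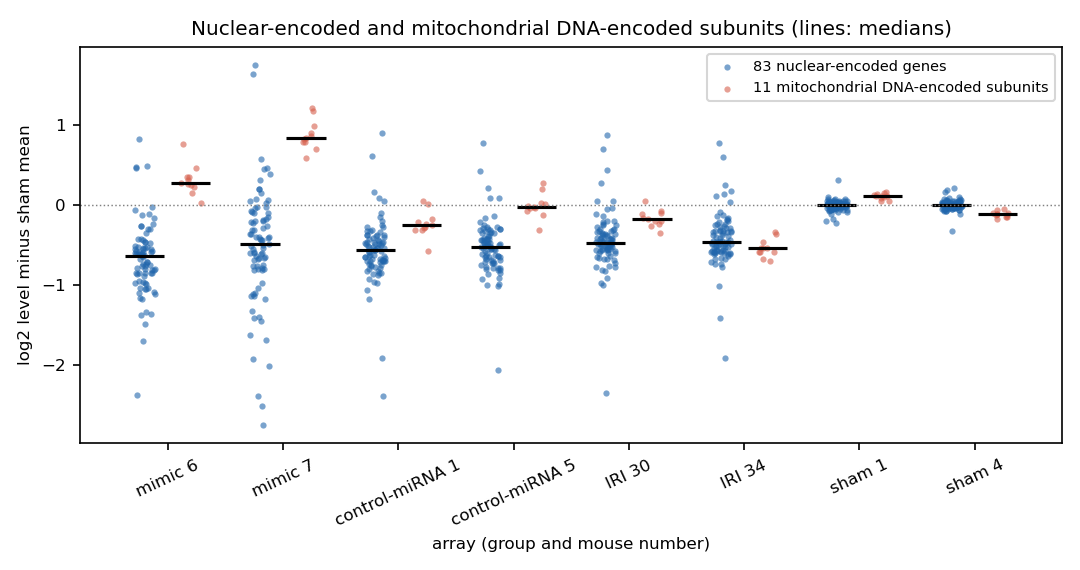
Log2 level minus the sham mean (vertical axis) of the 83 nuclear-encoded genes (blue) and of 11 subunits encoded in mitochondrial DNA (red) on each array (horizontal axis), with lines at the medians. On the mimic arrays, the dimmest ones, the red medians are 0.27 and 0.85 and the blue ones -0.64 and -0.49.

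Other genes of the pathway were taken from lists, and their counts stand against 12.2% of all genes called lower and 13.6% called higher in injured kidneys. Of 12 subunits and carriers outside the naming rule, 2 fell in injured kidneys: Etfa, which passes electrons from fatty acid oxidation to the chain (-0.99, limma adjusted p = 0.0049), and Slc25a5, an ADP/ATP carrier (-0.99, limma adjusted p = 0.0291). All 12 differences were negative, with a median of -0.41, and Atp5md, a small ATP synthase subunit, was not called (-0.45, limma adjusted p = 0.0539). Of 42 assembly factors 10 fell and 4 rose, with a median of -0.30. Acad9, a complex I assembly factor, fell by 0.89 (limma adjusted p = 0.00584) and Cox15, needed for the haem of complex IV, by 0.71 (limma adjusted p = 0.0136), and Sdhaf4, a complex II factor, by 0.58 (limma adjusted p = 0.0143), while Uqcc2, a complex III factor, rose by 0.59 (limma adjusted p = 0.0175). Of 16 regulators of mitochondrial biogenesis 2 fell and 2 rose, shares near those of all genes. Ppargc1a, the coactivator of this programme, fell by 1.15 (limma adjusted p = 0.0395), with 2.00 and 3.30 in mimic, 1.94 and 2.22 in control-miRNA, 2.08 and 1.91 in IRI and 3.36 and 3.42 in sham mice. As for Cox7a1, mimic 7 was the injured array nearest to sham. Esrrb, an orphan nuclear receptor, fell by 1.26 (limma adjusted p = 0.0438), and Pprc1, a relative of Ppargc1a, rose by 1.53 (limma adjusted p = 0.000695), as did Hif1a, the hypoxia factor, by 0.52 (limma adjusted p = 0.0304).

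Promoter sequences were examined because the genes moved together. RefSeq promoters (GRCm38.p6) were found for 69 of the 85 genes, 75 promoters in all, and the 250 bases before each start were searched on both strands for 6 motifs, chosen after seeing the data. The NRF1 motif (GCGCA, any base, GCGC) was found in 14 of the 75 (18.7%), against 6.51% of the promoters of the other genes tested and 3.74% of all promoters. The ETS motif CCGGAAGT was found in 4% (other tested genes 4.85%, all promoters 2.88%), the YY1 motif AAGATGGC in 2.67% (1.79% and 1.56%) and the ERR motif AAGGTCA in 6.67% (3.27% and 4.08%). The SP1 motif GGGCGG was found in 33.3% (51.1% and 32.7%) and the HIF motif ACGTG in 24% (19.9% and 16.6%). These are matches of letters and not binding sites. The 13 measured genes with an NRF1 match had a median difference of -0.57 in injured against sham kidneys and the 55 without one -0.53. The 3 promoters below are Cox7a1, which had the largest fall and no match to the NRF1, ETS, YY1 or ERR motif, and Sdha and Ndufb4, which hold 3 NRF1 matches each. Ndufb4, an accessory subunit of complex I, had a difference of -0.41 that was not called. Each line gives the 250 bases before the start on the gene's strand, with matches to those 4 motifs in capitals. The regions are chr7:30183921-30184170 (plus strand) for Cox7a1, chr13:74350241-74350490 (minus strand) for Sdha and chr16:37654369-37654618 (minus strand) for Ndufb4, in GRCm38.p6.
Cox7a1: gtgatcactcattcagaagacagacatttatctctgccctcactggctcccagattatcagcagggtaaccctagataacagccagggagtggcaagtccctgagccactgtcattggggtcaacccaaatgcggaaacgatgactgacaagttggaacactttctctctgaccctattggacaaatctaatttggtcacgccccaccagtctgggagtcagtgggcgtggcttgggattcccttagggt
Sdha: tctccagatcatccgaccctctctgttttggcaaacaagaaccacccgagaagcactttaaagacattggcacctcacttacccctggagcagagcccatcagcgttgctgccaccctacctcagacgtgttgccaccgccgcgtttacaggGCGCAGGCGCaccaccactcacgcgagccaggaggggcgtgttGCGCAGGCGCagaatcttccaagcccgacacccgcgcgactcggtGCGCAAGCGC
Ndufb4: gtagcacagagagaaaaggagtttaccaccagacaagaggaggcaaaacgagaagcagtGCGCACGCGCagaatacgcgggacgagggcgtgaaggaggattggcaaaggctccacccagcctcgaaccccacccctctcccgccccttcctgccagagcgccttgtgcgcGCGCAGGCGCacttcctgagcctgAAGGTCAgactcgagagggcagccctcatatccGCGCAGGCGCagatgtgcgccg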

How the data were processed

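Total RNA of each kidney was labelled with Cy3 and hybridised to an Agilent 1-colour array, and, per the submitters' processing notes, Feature Extraction 12.0.3.1 read the signals. The deposited scanner files hold a processed intensity per spot, background-subtracted per the file headers, with 0 or 1 flags for signals well above background, saturated or outlying, a score that is used only as a filter. The authors also deposited a table of linear ratios per probe, whose scaling no label or header states. Every column of values was matched to a sample, and 0 were not.

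Control and outlier spots were left out, log2 intensities were scaled to each array's 75th percentile, spots of a probe were averaged, and a probe was kept if some group had it well above background on each of its 2 arrays. The brightest kept probe stood for its gene. Limma 3.58.1 (R 4.3.3) was fitted to the 8 arrays with 4 group means and was tested on simulated data. The genes, lists, comparisons and the rule for naming genes were chosen with earlier results of these data known. The text names, by a rule, the markers Sdha, Ndufa4 and Uqcrc1, core or catalytic subunits, pairs of tissue forms, up to 10 called genes with the smallest p-values in each direction of each comparison (3 with the smallest p where fewer than 3 were called), genes whose probes disagree, and 3 genes of each pathway list. Ndufb4, Atp5g2, Atp5g3, Uqcc2, Esrrb, the genes of the probe pairs and the promoters printed were chosen after their values were seen. The values of 1 gene named by the rule are not reported here, though it stays in the counts. The alternatives were normexp, quantile and median scaling, no filter, the mean of probes, a brightness covariate, array weights, a variance trend, the deposited ratios, only the groups compared, and leaving out each array.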

Additional observations from a re-analysis of the deposited data

How the results depend on the processing

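No paired analysis was possible because the groups share fewer than 2 mouse numbers, and a slide block was not run because the 8 arrays lay on 1 slide. The medians against sham were negative in every setting run, while the counts of called genes depended on the setting. In the order injured, IRI, control-miRNA and mimic against sham, then mimic against control-miRNA and mimic against IRI, the text gives 42, 9, 21, 42, 0 and 10 calls. Normexp gave 56, 23, 43, 61, 21 and 26, quantile normalization 68, 43, 52, 55, 0 and 3, no filter 18, 2, 3, 17, 0 and 11, and the brightness covariate 49, 0, 26, 0, 0 and 0. Array weights gave 65, 48, 51, 29, 0 and 0, the variance trend 55, 31, 43, 52, 8 and 19, and the deposited ratios 52, 25, 35, 48, 0 and 5. With only the groups compared, IRI against sham had 42 calls, control-miRNA against sham 29, mimic against sham 13 and mimic against IRI 0. The shares of all genes called there were 31.9%, 20.3%, 14.3% and 0%, so the 13 (15.7% of the members) were near the background. With both mimic arrays left out, added after seeing the data, there were 56, 39 and 52 in injured, IRI and control-miRNA against sham. Of all genes, 34.1%, 28% and 26.9% were called there. Leaving out 1 array gave 0 to 65, 0 to 39, 0 to 52, 4 to 48, 0 to 26 and 0 to 24, in the same order, and 0 throughout in control-miRNA against IRI. The share of all genes called also moved. In injured against sham it was 25.8% in the text, 26.9% with normexp, 25.4% with quantile normalization, 10.5% with no filter, 27.4% with the brightness covariate, 37.6% with array weights, 28.5% with the trend and 25.7% with the deposited ratios. In mimic against IRI the same settings gave 16%, 48.6%, 10.5%, 32.4%, 0%, 0%, 20.5% and 10.8%, and in mimic against sham 28%, 38.1%, 28.3%, 10.5%, 0.541%, 16.9%, 31.1% and 28.3%. In IRI against sham these settings gave 18.3%, 21.1%, 17.3%, 6.65%, 8.73%, 37.4%, 21.4% and 17%. For control-miRNA against sham the shares were 17.3%, 20%, 17.2%, 6.19%, 18.8%, 28.4%, 21.2% and 17%. With no filter, the members were thus called less often than all genes in these last 2 comparisons, at 2.35% and 3.53%.

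The medians in that order were -0.78, -0.77, -0.82, -0.82, 0.054 and -0.016 with quantile normalization. With the deposited ratios, the medians against sham were -0.63 (injured), -0.54 (IRI), -0.63 (control-miRNA) and -0.71 (mimic). In mimic against sham, mimic against control-miRNA and mimic against IRI they were -0.71, -0.12 and -0.28 with normexp, and -0.71, -0.16 and -0.33 with the brightness covariate. Leaving out 1 array gave -0.64 to -0.49 in mimic against sham, -0.16 to 0.079 in mimic against control-miRNA and -0.27 to -0.028 in mimic against IRI. The median of all genes in mimic against sham moved from 0.11 to 0.22 with normexp and to -0.03 with the brightness covariate. In mimic against IRI, 1069 of 2223 called genes were lower with quantile normalization, against 1175 of 3409 in the text.

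Signs turned for a few genes. Cox7b2 in injured against sham was 0.099 with normexp, and with the brightness covariate it was -0.78 in mimic against sham and -1.23 in mimic against IRI. Ndufb7 in mimic against IRI was -0.20 with that covariate. Ndufv2 in injured against sham was 0.34 with the mean of its probes. Cox6a2 in injured against sham was -0.069 with both mimic arrays left out. Leaving out 1 array gave Cox7b2 -0.38 to 0.26 and Cox6a2 -0.044 to 0.66 in injured against sham. In control-miRNA against IRI it gave Cox6a2 -0.48 to 1.63, Ndufa4l2 -0.028 to 0.23 and Sdhd -0.074 to 0.11, and Sdhd was -0.00932 with normexp. The causes were not tested. With 2 mice a group, 1 mouse can decide a call, and the dim mimic arrays limit what the genes near background can show.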
